A study of Mus musculus with 17 samples.

Results

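The 26S proteasome and its regulators were read across spleen CD8 T cells carrying 4 genetic modification labels. Members were all rows of the gene count tables whose symbol is Psm, a letter from a to g and a number. The rule found 48 of 24594 genes. Of these, 45 encode constitutive subunits, assembly factors or regulators, and 3 (Psmb8, Psmb9 and Psmb10) encode immunoproteasome subunits, which are given apart. By role they were 8 genes of the 20S alpha ring, 8 of the 20S beta ring besides the immunoproteasome, 6 ATPases and 11 non-ATPases of the 19S cap, 7 assembly chaperones, and 5 activators and inhibitors.

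RNA was measured in 17 libraries of mouse spleen CD8 T cells, all labelled positive for CD8 and for Thy1.1, a T cell surface marker. The groups were 5 libraries labelled Rosa KO, taken here as the reference, and 4 each labelled Asxl1 KO, Dnmt3a KO and Tet2 KO. Asxl1, Dnmt3a and Tet2 encode chromatin and DNA methylation regulators that are recurrently mutated in clonal hematopoiesis. The labels give no way of making the knockouts, no treatment, no age or strain, and do not say whether replicates came from separate animals, so p-values below measure only the spread between these libraries. The molecule field reads genomic DNA, while the protocols describe RNA and stranded total RNA libraries.

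The library numbers in the labels fall into 3 series, called runs here, and the labels do not say that they are batches. Asxl1 KO 1 was in run 1 with both Dnmt3a KO 1 and 2 and with Rosa KO 1. Asxl1 KO 2 was in run 2, beside Tet2 KO 1, Tet2 KO 2, Dnmt3a KO 3 and Dnmt3a KO 4, and that run has no Rosa KO library. Run 3 has no Dnmt3a KO library and comprises the remaining 8, of which 4 are Rosa KO, 2 Asxl1 KO and 2 Tet2 KO. Total counts ran from 6625833 to 40701203 with a median of 21642477, and members took 0.356% to 0.701% of them. Cd8a lay between 641 and 1240 CPM (counts scaled to library size) in every library. None of the targeted genes passed as lower in its own knockout at the level of whole-gene counts. Asxl1 was at 70.3 to 146 CPM in Asxl1 KO and 82.1 to 161 CPM in Rosa KO, with adjusted p = 0.836 in edgeR's quasi-likelihood test. The adjusted p was 0.978 for Dnmt3a and 0.734 for Tet2 in their own knockouts. Whole-gene counts do not check an edit that leaves the transcript in place, so the groups are named by their labels throughout.

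The proteasome degrades ubiquitin-tagged proteins. Its barrel, the 20S core, stacks alpha rings outside beta rings, and the beta rings hold the cutting sites in Psmb5, Psmb6 and Psmb7. In lymphocytes, and after interferon gamma in most cells, these are exchanged for Psmb8, Psmb9 and Psmb10, which favours peptides that fit MHC class I molecules. The 19S cap recognises, unfolds and feeds substrates, with a ring of ATPases (the Psmc genes) and scaffold and receptor subunits (most Psmd genes). Psme1 and Psme2 encode the alpha and beta subunits of the PA28 activator, which opens the barrel and is also induced by interferon gamma.

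The promoters of 4 of the genes described below are shown because the interferon-linked members are often grouped by such elements. Windows of 300 bases, from 250 bases before to 50 after the annotated start, come from RefSeq (GRCm38.p6) and were found for 40 of the 48 members. Each is written along its gene's strand, and capitals mark a match on either strand to GAS (TTCNNNGAA), the core of an interferon-stimulated response element (GAAA repeated after a gap of 2 bases) or an antioxidant response element (TGACNNNGC). Psmb8 lies at chr17:34197945-34198244 on the plus strand, Psmb10 at chr8:105938343-105938642 on the minus strand, Psme1 at chr14:55578244-55578543 and Psmb3 at chr11:97703184-97703483, both on the plus strand.
Psmb8: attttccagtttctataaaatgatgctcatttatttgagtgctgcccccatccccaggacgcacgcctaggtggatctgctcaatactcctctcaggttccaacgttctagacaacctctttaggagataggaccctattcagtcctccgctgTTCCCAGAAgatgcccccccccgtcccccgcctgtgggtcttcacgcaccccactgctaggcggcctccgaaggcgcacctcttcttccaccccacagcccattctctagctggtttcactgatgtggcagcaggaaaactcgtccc
Psmb10: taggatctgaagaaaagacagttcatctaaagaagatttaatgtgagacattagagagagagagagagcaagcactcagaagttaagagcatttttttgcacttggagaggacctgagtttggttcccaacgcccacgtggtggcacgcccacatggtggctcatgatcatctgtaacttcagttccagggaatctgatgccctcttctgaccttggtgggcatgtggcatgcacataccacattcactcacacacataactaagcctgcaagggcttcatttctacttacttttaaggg
Psme1: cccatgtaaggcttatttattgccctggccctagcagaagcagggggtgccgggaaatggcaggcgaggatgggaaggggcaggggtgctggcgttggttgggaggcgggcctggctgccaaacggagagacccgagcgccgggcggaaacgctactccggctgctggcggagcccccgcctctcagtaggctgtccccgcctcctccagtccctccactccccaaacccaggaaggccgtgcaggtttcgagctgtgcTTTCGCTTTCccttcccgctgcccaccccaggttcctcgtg
Psmb3: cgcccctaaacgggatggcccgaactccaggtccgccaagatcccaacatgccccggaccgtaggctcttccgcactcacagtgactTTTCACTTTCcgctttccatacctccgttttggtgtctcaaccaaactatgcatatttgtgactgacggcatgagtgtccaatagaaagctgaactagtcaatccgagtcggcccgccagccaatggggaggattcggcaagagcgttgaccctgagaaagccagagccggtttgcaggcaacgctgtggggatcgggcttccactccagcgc

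Psmb8 holds a GAS match that begins at base -97 from the start. Psme1 holds a match to the response element core that begins at base 10 after the start, and Psmb3 one at base -163. Psmb10 has none of the 3 in this window, nor do Psmb9 and the windows of Psme2. Among the 40 members with a window, 3 held GAS (7.5%, against 9.55% of all 27025 genes with a window) and 5 held the response element core (12.5%, against 3.99%). Those 5 were Psmd4, Psmd9, Psmb3, Psmg4 and Psme1. The antioxidant element was in 6 members (15%, against 14.0% of genes), and CCAAT, a common promoter box, in 14 (35%, against 41.1%). Both strands were searched, matches to different motifs may overlap, and a match is not a binding site.

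In Rosa KO libraries the highest members per length were Psme1, Psmb8, Psme2 and Psmb9. Levels were divided by the length of the exons of each gene's coding transcripts and are given in CPM per kilobase (n = 5, SD). Psme1 stood first at 293 ± 38.9, followed by Psmb8 at 225 ± 25.3, Psme2 at 198 ± 36.7 and Psmb9 at 193 ± 31.6. Psmb10 was lower, at 103 ± 23.1, rank 13 of the 48. Each immunoproteasome gene had a higher mean than its constitutive counterpart, since Psmb5 stood at 70.4 ± 11.1, Psmb6 at 123 ± 40.4 and Psmb7 at 59.2 ± 13.0. The Psme1 values of the Rosa KO libraries all lay above their Psmb8 values, but 45 of the 47 neighbouring pairs in the order overlapped in range, so most ranks are not separated. With all annotated transcripts in place of coding ones, Psme1 and Psme2 kept ranks 1 and 3, while Psma6 moved from rank 8 to 2, Psmb8 from 2 to 4, Psmb9 from 4 to 9, Psmb10 from 13 to 6 and Psmb3 from 5 to 16. The order below Psme1 thus depends on the transcripts counted.

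The core and cap differed by role. Tested alpha ring members (7) had a median of 103 CPM per kilobase in Rosa KO, with Psma7 highest at 142. The 7 tested beta ring members had a median of 117, with Psmb3, a non-catalytic subunit, highest at 161 and Psmb1 lowest at 34.1. The 6 ATPases had a median of 52.2 and a range from 36.9 to 63.9. The 11 non-ATPases had a median of 42.4 and ran from Psmd3, a scaffold subunit, at 8.42 to Psmd14, the deubiquitinase of the cap, at 101. Assembly chaperones were the lowest role, with a median of 11.9 and Psmg4 highest at 28.6. Among regulators other than PA28 alpha and beta, Psme3 (PA28 gamma) was at 35.3, Psme4 (PA200) at 21.2 and Psmf1 (the inhibitor PI31) at 11.3. These values use coding transcripts. With all annotated transcripts, Psma6 was highest of the alpha ring at 117, with Psma7 at 54.7. In the tested beta ring Psmb2 was then highest at 83.8 and Psmb7 lowest at 20.1, with Psmb3 at 53.6 and Psmb1 at 25.4. The ATPases ran from 21.5 to 60.3. Medians by role were not computed with those lengths.

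Tissue-restricted core subunits had almost no counts. Psma8, the testis alpha subunit, had 76 counts over all libraries and counts in 7 of the 17. Psmb11, the beta subunit of thymic cortical epithelium, had 9 counts, in 5 libraries. Neither passed the filter on low counts, which left 46 members in 13881 tested genes.

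**Figure D1:**
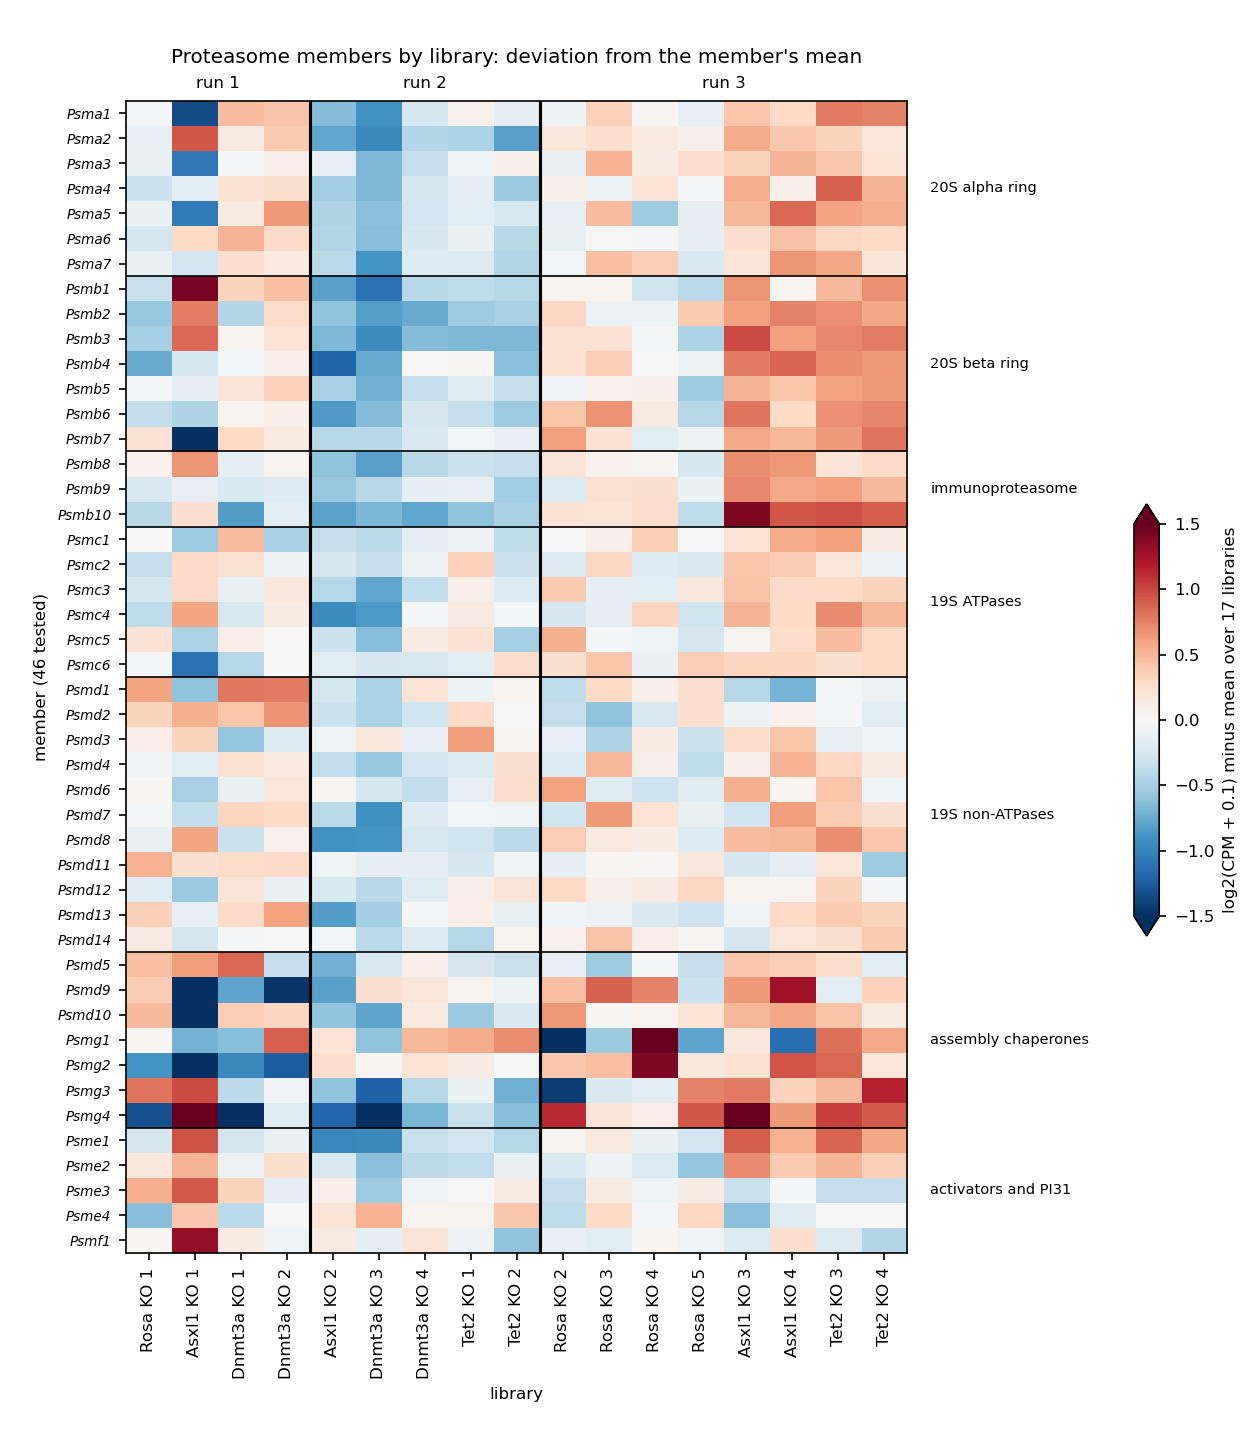
Deviation of each of the 46 tested members (rows, by role) from its own mean over the 17 libraries (columns, by run), in log2(CPM + a small offset); colours saturate at 1.5 in either direction. Run 2 is mostly below the mean in every group, Asxl1 KO and Tet2 KO libraries of run 3 are mostly above it, and Asxl1 KO 1 varies most from row to row.

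Member levels differed by run. Run 2 had the lowest median of the 3 runs for 37 of the 46 members, and run 3 the highest for 29. The same shares over all tested genes are not given here, so these counts are not a result about members. Short genes as a whole, relative to long ones, were also lower in run 2 than in run 3, with values given below. The summed level of the beta ring was 414 to 589 CPM in the 5 libraries of run 2, below each of the 8 libraries of run 3 (633 to 1214 CPM). Summed immunoproteasome levels were 483 to 614 CPM in run 2 and 647 to 1366 CPM in run 3, again without overlap. The 19S non-ATPases ran from 684 to 966 CPM in run 2 and from 954 to 1159 CPM in run 3, with a small overlap. Because run 2 holds no Rosa KO library and run 3 no Dnmt3a KO library, each fold change below was fitted with run as a term, over all 17 libraries. In bulk RNA, fewer cells of a type and less RNA per cell cannot be told apart.

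Asxl1 KO 1 stood apart. Its members' log2 deviations had an SD of 0.92, against 0.26 to 0.50 in the other 16 libraries. Psmb7 was at 10.5 CPM there and at 45.0 to 105 CPM elsewhere, and Psmd10, an assembly chaperone also called gankyrin, was at 9.25 CPM against 17.7 to 48.3 CPM. In the other direction Psmb1 was at 353 CPM against 60.5 to 211 CPM, and Psmf1 at 118 CPM against 30.8 to 55.9 CPM. The summed level of the erythroid markers in the tables (5 of 8 listed) was 2974 CPM in that library and 27.4 to 548 CPM in the others. Psmb10, Psmb3 and Psme2 passed in Asxl1 KO without that library, and Psme1 did not (adjusted p = 0.114, edgeR, with 1.6% of genes passing).

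Asxl1 KO libraries had higher levels of Psmb3, Psmb10, Psme1 and Psme2 than Rosa KO libraries once run was accounted for. These 4 of the 46 members (8.70%) passed an adjusted p of 0.05 in edgeR's test over all genes, and no member passed as lower. Of all genes tested, 1.64% passed, 0.814% higher and 0.821% lower. The median log2 fold change was 0.24 over the 46 members and 0.00 over all genes, with 30 members above 0. One beta ring member, 1 immunoproteasome member and 2 activators passed, and none of the alpha ring, ATPase, non-ATPase or assembly members did.

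Psmb10, the immunoproteasome form of the beta 2 site, was at 100.3, 154.8, 154.5, 160.04 and 103 CPM in Rosa KO 1 to 5. In Asxl1 KO 1 to 4 it was at 160.4, 76.8, 352 and 254 CPM. Asxl1 KO 2 was below every Rosa KO library, Asxl1 KO 1 just above the highest and the others well above, so the groups overlapped. The fitted log2 fold change was 0.88 ± 0.19 (SE, adjusted p = 0.0149, edgeR).

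Psmb3, the structural beta 3 subunit, was at 92.0, 151, 151, 128 and 93.7 CPM in Rosa KO 1 to 5. Its levels in Asxl1 KO 1 to 4 were 236, 81.6, 259.6 and 200.5 CPM. Asxl1 KO 2 was below every Rosa KO library and the other 3 above. The log2 fold change was 0.92 ± 0.17 (adjusted p = 0.00464, edgeR).

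PA28 alpha (Psme1) was at 289, 358, 382, 319 and 282 CPM in Rosa KO 1 to 5, and at 667, 174, 645 and 493 CPM in Asxl1 KO 1 to 4. Its log2 fold change was 0.77 ± 0.19 (adjusted p = 0.0400, edgeR). PA28 beta (Psme2) was at 244, 185, 206, 188 and 145 CPM in Rosa KO, and at 309, 185, 356 and 286 CPM in Asxl1 KO. Its log2 fold change was 0.67 ± 0.15 (adjusted p = 0.0226, edgeR). For both subunits Asxl1 KO 1, 3 and 4 lay above every Rosa KO library and Asxl1 KO 2 did not.

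Psmb8, the beta 5 immunoproteasome site, was at 376, 412, 377, 366 and 299.6 CPM in Rosa KO and at 567, 237, 583 and 566 CPM in Asxl1 KO. Its log2 fold change of 0.53 ± 0.15 missed the threshold (adjusted p = 0.0647, edgeR). Psmb9, the beta 1 immunoproteasome site, was at 222, 226, 306, 309 and 245 CPM against 241, 176, 431 and 388 CPM, with a log2 fold change of 0.40 ± 0.15 (adjusted p = 0.183, edgeR). The range of either gene in Asxl1 KO enclosed that in Rosa KO.

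**Figure D2:**
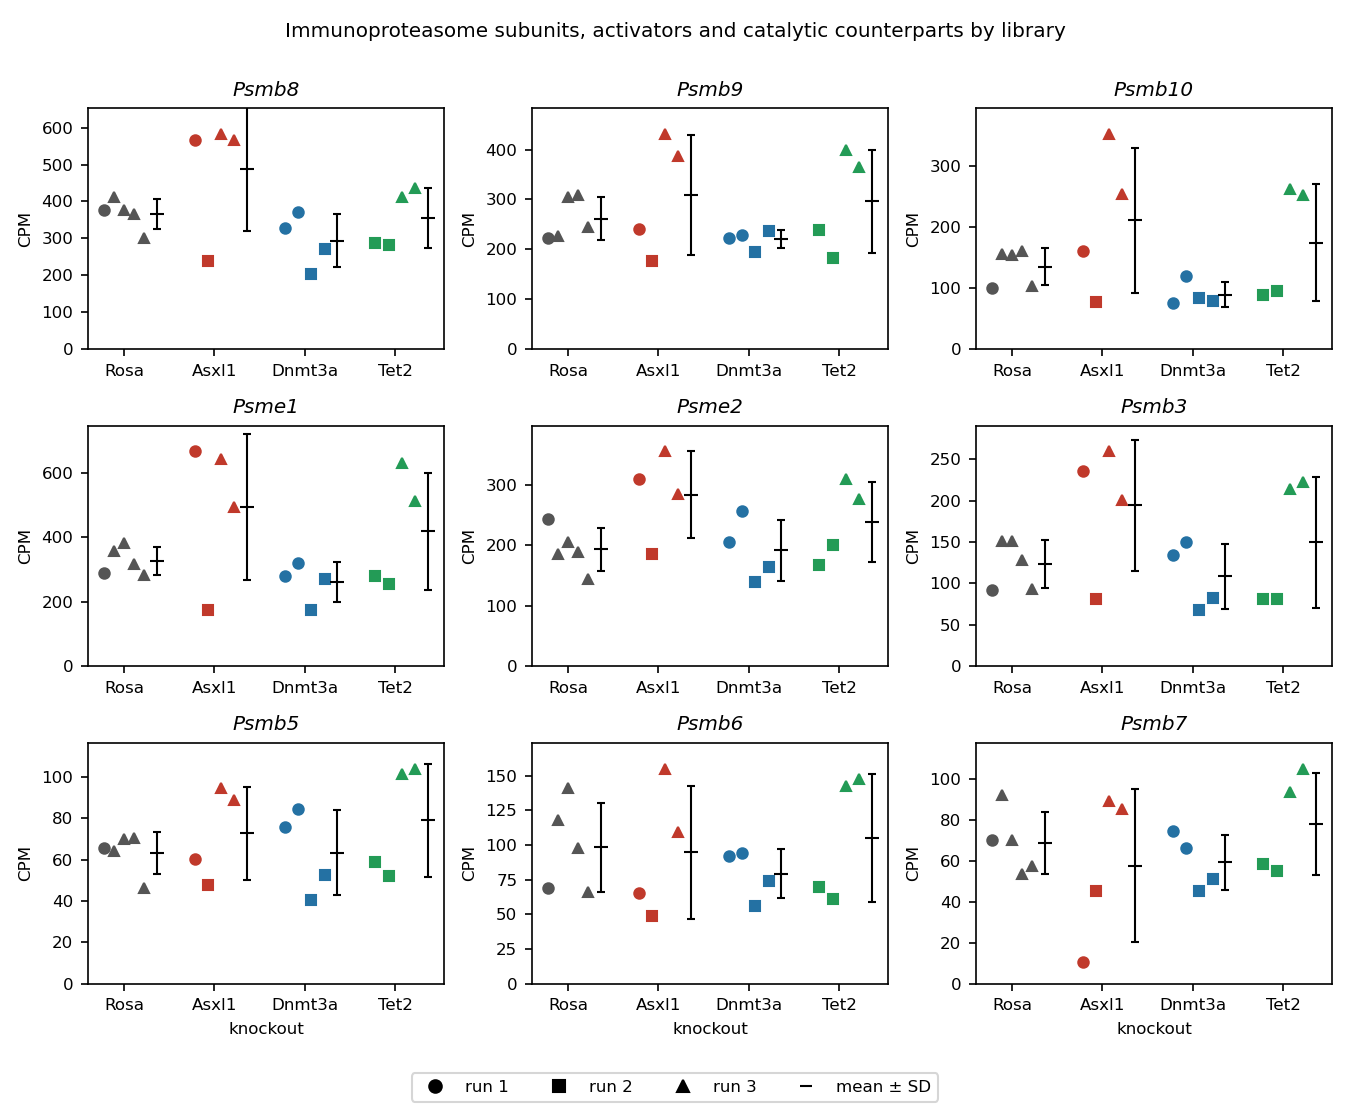
CPM of 9 members in each of the 17 libraries, by label (horizontal axis) and run (marker shape), with the mean and SD of each group to the right. Squares (run 2) are the lowest points of their group in most panels, with exceptions for Psmb9 (Dnmt3a KO 4 is the highest of its group), Psmb10 (Dnmt3a KO 1, of run 1, is the lowest of its group) and Psmb7 (Asxl1 KO 2 is above Asxl1 KO 1). The Asxl1 KO triangles of run 3 lie above all Rosa KO points for Psmb8, Psmb9, Psmb10, Psme1, Psme2, Psmb3 and the constitutive Psmb5.

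Among the members that missed the threshold in Asxl1 KO, 2 more beta ring genes were close to it. Psmb1 had a log2 fold change of 0.79 ± 0.22 (adjusted p = 0.0619) and Psmb2 of 0.70 ± 0.19 (adjusted p = 0.0615), both in edgeR's test. The highest estimate belonged to Psmg4, a chaperone of alpha ring assembly, at 1.01 ± 0.53 with an adjusted p of 0.36. It was measured at 4.67 to 25.8 CPM in Rosa KO and 5.13 to 37.8 CPM in Asxl1 KO, so its error was wide. The lowest belonged to Psmd1, the largest scaffold of the cap, at -0.68 ± 0.21 (adjusted p = 0.0897). Psmd1 was at 176, 89.9, 144, 123 and 141 CPM in Rosa KO and at 77.0, 96.8, 86.6 and 72.0 CPM in Asxl1 KO. Only Rosa KO 2 came within the Asxl1 KO range.

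Leaving out libraries ended calls. Without Asxl1 KO 3 none of the 4 passed (0.563% of genes did), and adjusted p was 0.140 for Psmb10, 0.0520 for Psmb3, 0.184 for Psme1 and 0.161 for Psme2. Psmb10 and Psmb3 held without any other single library. Psme1 held in 8 of the 17 fits that leave out 1 library each. Its adjusted p was 0.0867, 0.0584, 0.0501, 0.0777 and 0.1002 without Rosa KO 1 to 5 in turn, 0.114 without Asxl1 KO 1, 0.0547 without Asxl1 KO 4 and 0.0631 without Tet2 KO 3. Psme2 held in 14, and was also lost without Rosa KO 5 (0.0694) and Asxl1 KO 4 (0.0503). Without Asxl1 KO 2, 8 members passed, and 2.61% of genes did. Without the run term none of the 4 passed (edgeR adjusted p 0.435 to 0.554, with 0.166% of genes passing). DESeq2 passed 8 members (4.88% of genes), the 4 with Psmb1, Psmb2, Psmb8 and the lower Psmd1, and edgeR with no filter on low counts passed the same 8 (2.68%).

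Within run 3 alone, 2 Asxl1 KO libraries faced 4 Rosa KO libraries, and 6 members passed edgeR's test, namely Psmb3, Psmb4, Psmb8, Psmb10, Psme1 and Psme2 (3.12% of all genes passed there). Psmb10 had a log2 fold change of 1.07 in that fit (adjusted p = 0.00351). Both Asxl1 KO libraries lay above all 4 Rosa KO libraries for 17 of the 46 members (37%) and for 14% of all tested genes, and below them for 3 members (6.52%, against 12% of genes). The 3 lower members were Psmd1, Psmd11 and Psmd12, all of the 19S cap. In run 1 the single pair of libraries gave log2 differences of 1.36 for Psmb3, 1.21 for Psme1, 0.68 for Psmb10 and 0.34 for Psme2, with no test, and the median over the 46 members was 0.13. Run 2 has no Rosa KO library.

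Markers of cell types differed between the same libraries. The summed level of B cell markers (16 of 18 in the tables, none of the 16 at 0 in all libraries) ran from 1832 to 3015 CPM in Asxl1 KO and from 1694 to 7213 CPM in Rosa KO, and within run 3 from 1832 to 2141 CPM against 6434 to 7213 CPM. With the B cell level as a covariate, Psmb3, Psmb10 and Psme2 passed edgeR's test and Psme1 did not (adjusted p = 0.0722, with 1.54% of genes passing). The 8 CD8 T cell markers summed to 8043 and 8414 CPM in Asxl1 KO of run 3 against 5104 to 5773 CPM in Rosa KO, and Cd2, Cd3d and Cd3g passed higher in Asxl1 KO. Plasma cell markers (8 of 8 in the tables) summed to 495 to 565 CPM in Asxl1 KO of run 3 against 799 to 902 CPM in Rosa KO, and over all runs to 495 to 629 CPM against 669 to 902 CPM. CD4 T cell markers (5 of 5) summed to 172 to 211 CPM against 122 to 145 CPM within run 3, and to 55.3 to 211 CPM against 81.2 to 145 CPM over all runs. Myeloid markers (12 of 12) overlapped within run 3, at 829 to 923 CPM against 821 to 1142 CPM. The part of the CD8, plasma cell and CD4 marker levels in the result was not tested. The 20 proliferation genes summed to 3129 to 4371 CPM in Asxl1 KO against 2615 to 3146 CPM in Rosa KO. Within run 3 they summed to 3129 to 3398 CPM against 2615 to 2985 CPM. With the proliferation level as a covariate Psmb3, Psmb10, Psme1 and the lower Psmd1 passed (0.843% of genes).

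Tet2 KO libraries had higher Psmb3 than Rosa KO libraries, the 1 member of 46 that passed (2.17%), with 1.47% of all genes passing, 0.987% higher and 0.483% lower. Psmb3 was at 81.4, 81.4, 214 and 222 CPM in Tet2 KO 1 to 4. The first pair, from run 2, lay below every Rosa KO library and the second pair, from run 3, above every one. The log2 fold change with the run term was 0.76 ± 0.18 (adjusted p = 0.0321, edgeR). Psmb3 did not pass within run 3, the only run with both labels, or with the libraries of both groups alone. In edgeR fits without 1 library it passed in 9 of 17, and adjusted p was 0.215 without Tet2 KO 3, 0.167 without Tet2 KO 4, 0.0936 without Rosa KO 5, 0.0763 without Rosa KO 1 and 0.0704 without Rosa KO 4. It was 0.0539 without Tet2 KO 1, 0.0599 without Dnmt3a KO 2 and 0.0503 without Dnmt3a KO 3. Without Asxl1 KO 1, 7 members passed, and 2.53% of genes did.

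Several core and activator genes had estimates of like size in Tet2 KO without passing. All 7 tested beta ring members and all 7 alpha ring members were above 0, with medians of 0.66 and 0.50, and the ATPases had a median of 0.27. The median was 0.32 over the 46 members and -0.02 over all genes, with 38 members above 0. Psmb1 was at 101, 98.0, 184 and 211 CPM in Tet2 KO 1 to 4 and at 99.3 to 136.5 CPM in Rosa KO, with the run 3 libraries above that range. Psme1 had a log2 fold change of 0.78 ± 0.20 (adjusted p = 0.0517), Psmb10 of 0.76 ± 0.20 (0.0605) and Psme2 of 0.60 ± 0.16 (0.0651), all in edgeR's test. Psmb1, with the highest estimate, had 0.84 ± 0.22 (0.0614). Psmb9 had 0.43 ± 0.16 (0.245) and Psmb8 0.30 ± 0.16 (0.477). The lowest estimate, -0.57 ± 0.48, was that of Psmd9, a chaperone of the ATPase ring (adjusted p = 0.718). Its levels were low, at 13.1 to 18.7 CPM in Tet2 KO and 11.8 to 27.3 CPM in Rosa KO. DESeq2 on the same design passed 6 members (Psma4, Psmb1, Psmb3, Psmb10, Psme1 and Psme2, with 2.94% of genes passing) and edgeR with no filter 6 (1.78%). Only Psmb3 and Psme1 passed with the B cell covariate (1.53%), and Psmb10 and Psme1 with the libraries of both groups alone (1.22%). None passed without the run term (0.166%).

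In Tet2 KO the split by run was complete for Psmb10, at 87.9 and 95.3 CPM in run 2 and 262 and 252 CPM in run 3. For Psme1 the values were 281, 255, 629.5 and 512 CPM in Tet2 KO 1 to 4. Psme2 was at 168, 201, 309 and 277 CPM. As for Psmb10, the run 3 libraries of Tet2 KO were above all Rosa KO libraries for both PA28 subunits. Psmb9 was at 239.1, 182, 400.04 and 365 CPM, again with the run 3 libraries above all Rosa KO libraries. Psmb8 was at 287, 282, 412 and 437 CPM, and of these only Tet2 KO 4 exceeded every Rosa KO library. Within run 3, against the same 4 Rosa KO libraries used for Asxl1 KO, Psma1, Psmb10, Psme1 and Psme2 passed (2.23% of all genes passed). Both Tet2 KO libraries exceeded all 4 Rosa KO libraries for 18 members (39.1%, against 13.5% of genes) and were below them for 1, Psmf1 (2.17%, against 10.6%). In those libraries the 20 proliferation genes summed to 5648 and 5012 CPM, against 2615 to 2985 CPM in Rosa KO of run 3, and over all runs from 2242 to 5648 CPM against 2615 to 3146 CPM. With that level as a covariate Psmb3 did not pass (log2 fold change 0.93, adjusted p = 0.266, edgeR), and 0.0864% of genes passed. Within run 3, myeloid markers summed to 1194 to 1263 CPM in Tet2 KO against 821 to 1142 CPM in Rosa KO. Plasma cell markers summed to 651 to 774 CPM against 799 to 902 CPM, and CD4 markers to 104 to 122.0 CPM against 122.4 to 145 CPM. B cell and CD8 T cell sums overlapped there, but B cell markers were at 252 CPM in Tet2 KO 2. The part of the myeloid, plasma cell and CD4 levels was not tested.

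**Figure D3:**
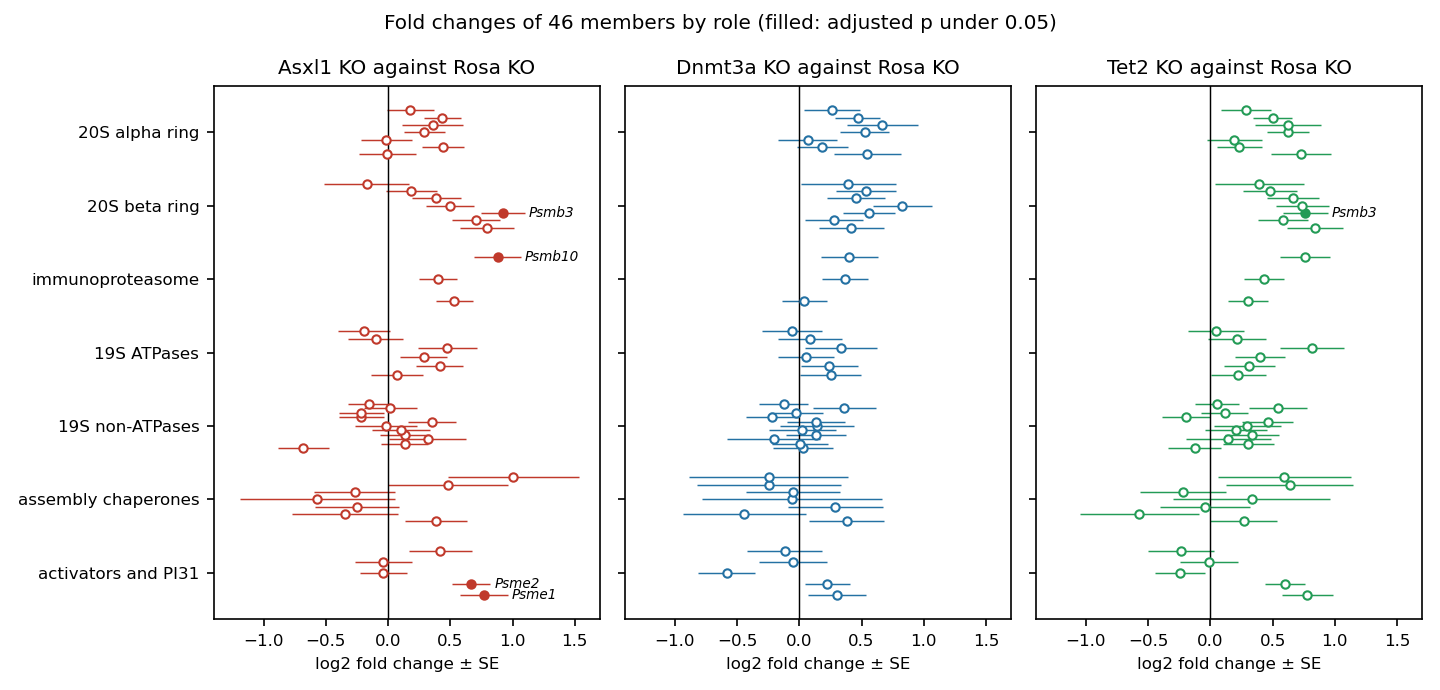
Fitted log2 fold change with its standard error for each of the 46 tested members against Rosa KO, by role, with all 17 libraries and a run term. Filled points passed an adjusted p of 0.05, namely 4 members in Asxl1 KO, none in Dnmt3a KO and 1 in Tet2 KO. The 3 panels share their Rosa KO libraries.

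No member passed in Dnmt3a KO against Rosa KO in edgeR's test (0 of 46, with 0.216% of all genes passing), and DESeq2 called none either (1.09% of genes). With no filter on low counts Psmb4 passed (0.59% of genes). At an unadjusted p of 0.05, 7 members (15.2%) differed, 6 of them higher, against 8.03% of all genes. Psmb10 was at 74.8, 119, 83.4 and 77.8 CPM in Dnmt3a KO 1 to 4, with only Dnmt3a KO 2 inside the Rosa KO range. Psmb8 was at 329, 372, 204 and 270 CPM and Psmb9 at 222, 228, 195 and 236 CPM. Their fitted log2 fold changes were 0.40 ± 0.23 for Psmb10, 0.04 ± 0.18 for Psmb8 and 0.37 ± 0.18 for Psmb9. The levels lay within or below the Rosa KO range while the fitted values were above 0. The fit adjusts for run, and run 1 alone holds both labels. Without the run term the 3 values turned to -0.60, -0.32 and -0.25, and within run 1 alone to -0.05, -0.10 and 0.02. The proliferation genes summed to 5574 to 5640 CPM in Dnmt3a KO of run 1, against 3146 CPM in Rosa KO 1. Over all runs they summed to 1866 to 5640 CPM in Dnmt3a KO. B cell markers were higher too within run 1. Their sum was 4975 CPM for Dnmt3a KO 1, 5333 CPM for Dnmt3a KO 2 and 1694 CPM for Rosa KO 1. Over all runs the B cell sums of the groups overlapped (1822 to 5333 and 1694 to 7213 CPM). Plasma cell and CD4 sums of both run 1 knockouts of Dnmt3a were also above Rosa KO 1. Their myeloid sums were below it, and their CD8 T cell sums lay on either side. The part of the plasma cell, CD4 and myeloid levels was not tested.

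The highest estimate in Dnmt3a KO was that of Psmb4, a structural beta subunit, at 0.83 ± 0.24 (adjusted p = 0.209, edgeR). It turned to -0.14 without the run term. Psmb4 was at 145, 160 and 88.3 CPM in Dnmt3a KO 1, Dnmt3a KO 2 and Rosa KO 1, the libraries of run 1. The lowest was that of Psme3, the nuclear PA28 gamma activator, at -0.58 ± 0.23 (adjusted p = 0.464), with 110, 79.1, 60.4 and 84.8 CPM in Dnmt3a KO and 68.3 to 126.7 CPM in Rosa KO. In Dnmt3a KO 1 to 4, Psme1 was at 281, 319, 176 and 272 CPM. Psme2 was at 205, 257, 140.04 and 164 CPM and Psmb3 at 133.8, 150.3, 67.8 and 82.9 CPM. The run 2 libraries, Dnmt3a KO 3 and 4, were the lower pair for Psme1, Psme2 and Psmb3. Psmb3 had 0.56 ± 0.21 (0.445), Psme1 0.30 ± 0.23 (0.796) and Psme2 0.22 ± 0.18 (0.814).

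Between knockouts no member passed in edgeR's test. Asxl1 KO against Dnmt3a KO passed 0 of 46, with 0.353% of all genes passing. At an unadjusted p of 0.05 it had 8 members (17.4%) and 11% of genes. Asxl1 KO against Tet2 KO passed 0, with 0.562% of genes passing, and at the unadjusted level 4 members (8.70%) and 7.21% of genes. Dnmt3a KO against Tet2 KO passed 0, with 0.0937% of genes passing, and at that level 2 members (4.35%) and 5.6% of genes. DESeq2 called none in these 3 comparisons, with 1.58%, 1.27% and 0.526% of genes passing in the same order. Within run 1, Asxl1 KO 1 alone against Dnmt3a KO 1 and 2 passed 7 members, where 7.81% of genes passed. A member that passed in Asxl1 KO and not in another knockout is therefore not shown to differ between them. Without Asxl1 KO 2, Psmb8 alone passed in Asxl1 KO against Dnmt3a KO, where 1.65% of genes passed.

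Members are short genes, and short genes as a whole were higher in some libraries. The median transcript length was 1384.5 bases for the 46 tested members and 2665 bases for the 12757 tested genes with a length (91.9% of those tested), and 41 members were shorter than that median. In each library the mean log2 deviation of genes in the top quartile of length was subtracted from that of genes in the bottom quartile. The difference was 0.56 and 0.32 in Asxl1 KO 3 and 4 and 0.63 and 0.50 in Tet2 KO 3 and 4. It was -0.02 to 0.27 in the Rosa KO libraries of run 3, -0.33 to -0.18 in run 1 and -0.52 to -0.08 in run 2.

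With an offset that levels this slope in each library, most fold changes fell. The fitted value was lower for 38 of the 46 members in Asxl1 KO, 44 in Dnmt3a KO and 41 in Tet2 KO. The share of all genes with a lower value is not given here, so these counts are not a result about members. Medians over the members became 0.09, 0.00 and 0.11, while those over all genes were -0.01, -0.06 and -0.06. Psmb10 in Asxl1 KO passed at 0.71 (adjusted p = 0.0470, edgeR, with 1.22% of genes passing), and it was the only member that did in any of the 3 comparisons with Rosa KO. Psmb3 in Asxl1 KO fell to 0.61 (adjusted p = 0.0708), Psme1 to 0.43 (0.238) and Psme2 to 0.39 (0.181). In Tet2 KO Psmb3 fell to 0.31 (0.592). The share of genes passing with the offset was 0.259% in Dnmt3a KO and 0.745% in Tet2 KO. With GC content added to the offset, no member passed in any of these comparisons, and Psmb10 in Asxl1 KO was at 0.58 (0.105). Of all genes 0.917%, 0.282% and 0.847% passed then in Asxl1 KO, Dnmt3a KO and Tet2 KO.

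**Figure D4:**
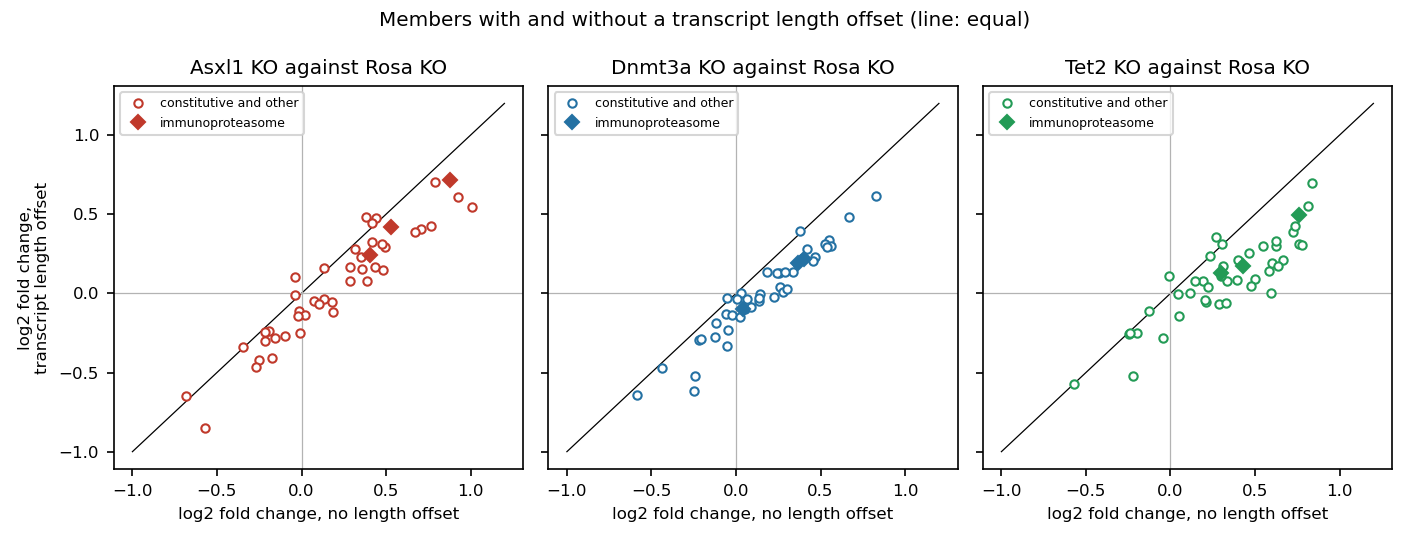
Log2 fold change of each of the 46 members against Rosa KO with a transcript length offset (vertical axis) and without it (horizontal axis), with the line of equal values. Most points lie under the line, namely 38 in Asxl1 KO, 44 in Dnmt3a KO and 41 in Tet2 KO, and the immunoproteasome members are drawn as diamonds. The share of all genes under the line is not given.

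Exchange of catalytic subunits was read as the log2 ratio of counts of each immunoproteasome gene to its constitutive counterpart within a library, which cancels depth. The ratio does not cancel the slope with transcript length described above. For Psmb8 over Psmb5 the ratio ran from 2.02 to 3.23 over the 17 libraries, which is 2.24-fold to 5.19-fold per length. For Psmb9 over Psmb6 it ran from 0.94 to 1.89 (1.13-fold to 2.19-fold), and for Psmb10 over Psmb7 from 0.01 to 3.93 (0.891-fold to 13.5-fold). Psmb5, the constitutive beta 5 site, was at 65.4, 64.4, 69.9, 70.5 and 46.1 CPM in Rosa KO, 60.3, 47.5, 94.7 and 88.8 CPM in Asxl1 KO, 76.0, 84.7, 40.4 and 52.6 CPM in Dnmt3a KO, and 58.9, 52.1, 101.4 and 104.1 CPM in Tet2 KO. Psmb6, the beta 1 site, was at 68.6, 118, 141, 97.7 and 66.0 CPM in Rosa KO, 65.02, 49.0, 155 and 109 CPM in Asxl1 KO, 92.2, 94.3, 56.3 and 74.2 CPM in Dnmt3a KO, and 69.3, 61.3, 143 and 148 CPM in Tet2 KO. Each group overlapped Rosa KO for both genes, with the run 2 libraries low. Psmb7, the beta 2 site, was at 70.2, 92.2, 70.2, 53.5 and 57.4 CPM in Rosa KO, 10.5, 45.0, 89.4 and 85.5 CPM in Asxl1 KO, 74.3, 66.2, 45.3 and 51.1 CPM in Dnmt3a KO, and 58.6, 55.2, 93.6 and 105 CPM in Tet2 KO. With the lengths of coding transcripts, the immunoproteasome gene was the higher per length in all libraries for the first 2 ratios. Folds per length were not computed with all annotated transcripts, which lowered the ranks of Psmb8 and Psmb9 above.

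Group means of Psmb8 over Psmb5 were 2.54 ± 0.14 (SD, n = 5) in Rosa KO, 2.71 ± 0.38 (n = 4) in Asxl1 KO, 2.24 ± 0.13 (n = 4) in Dnmt3a KO and 2.20 ± 0.19 (n = 4) in Tet2 KO. Dnmt3a KO libraries were at 2.11, 2.13, 2.34 and 2.36, and Rosa KO 1 to 5 at 2.52, 2.68, 2.43, 2.37 and 2.70, so the groups did not overlap. Tet2 KO libraries were at 2.28, 2.44, 2.02 and 2.07, and 1 of them reached the Rosa KO range. Two-sided exact permutation tests gave p = 0.0159 for Dnmt3a KO and p = 0.0397 for Tet2 KO, where 0.00794 is the smallest p that 5 against 4 libraries allow. Adjusted over the 18 ratio tests both were 0.262, so neither passed. These permutations ignore run, and only 1 of the 5 Rosa KO libraries shares a run with Dnmt3a KO. Within run 3 the difference of Tet2 KO from Rosa KO was -0.50 (exact permutation p = 0.0667, the smallest that 2 against 4 allow), and within run 1 that of Dnmt3a KO was -0.40. With the length offset, the fitted log2 fold change in Tet2 KO went from 0.66 to 0.21 for Psmb5 and from 0.30 to 0.13 for Psmb8. In Dnmt3a KO it went from 0.45 to 0.21 for Psmb5 and from 0.04 to -0.10 for Psmb8. The part of transcript length in the ratios was not tested.

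Psmb10 over Psmb7 averaged 2.06 ± 1.34 in Asxl1 KO (n = 4) and 0.96 ± 0.41 in Rosa KO (n = 5), a difference of 1.10 (exact permutation p = 0.0873, adjusted 0.262). The value of 3.93 in Asxl1 KO 1, where Psmb7 was low, is the highest of the 17. The other 3 libraries were at 0.77, 1.98 and 1.57, and Rosa KO at 0.51, 0.75, 1.14, 1.58 and 0.84. Psmb9 over Psmb6 averaged 1.46 ± 0.41 in Rosa KO (n = 5), and its highest group mean was 1.76 ± 0.19 in Asxl1 KO (n = 4). None of the 18 tests passed after adjustment, and the lowest adjusted p was 0.262.

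**Figure D5:**
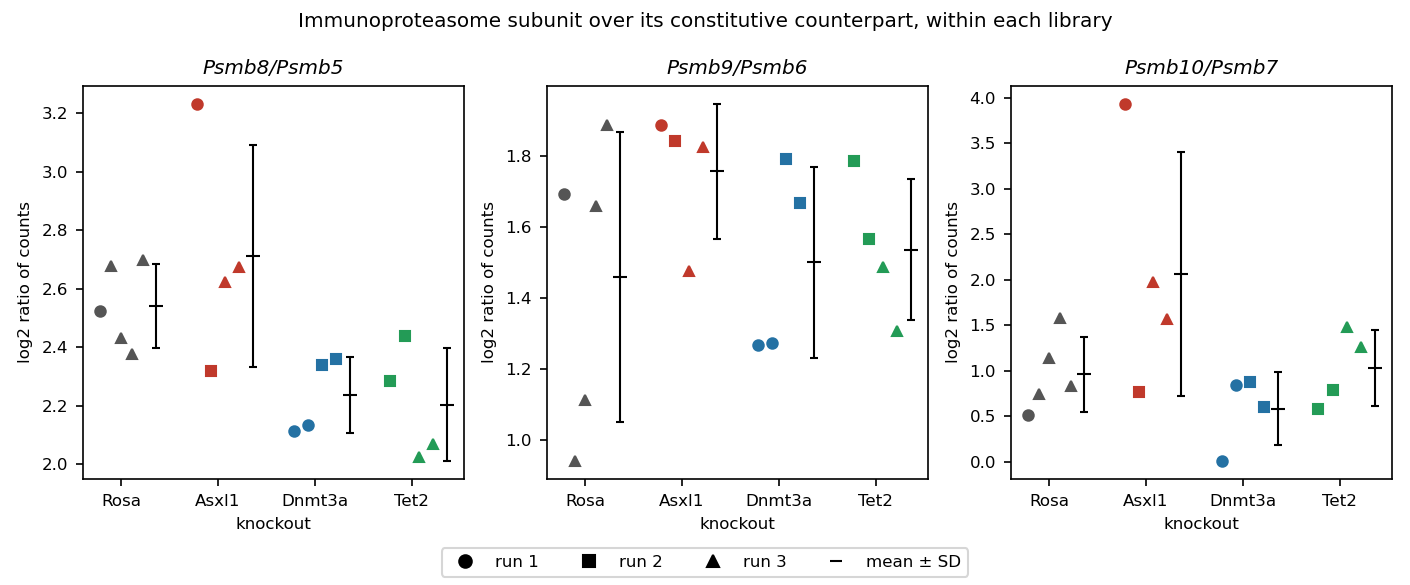
Log2 ratio of the counts of an immunoproteasome gene to those of its constitutive counterpart in each of the 17 libraries, by label and run (marker shape), with group mean and SD. Axes do not start at 0. Dnmt3a KO lies just below Rosa KO for Psmb8 over Psmb5 (2.36 in Dnmt3a KO 4 and 2.37 in Rosa KO 4). Dnmt3a KO 4 is of run 2, which has no Rosa KO library. Asxl1 KO 1 stands alone at 3.93 for Psmb10 over Psmb7.

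Of 22 further proteasome genes in the tables, among them the assembly factor Pomp, the ubiquitin receptor Adrm1 and the transcription factor Nfe2l1, which drives proteasome genes, none passed in any of the 6 comparisons. Their median log2 fold change was 0.05 in Asxl1 KO, -0.03 in Dnmt3a KO and 0.04 in Tet2 KO against Rosa KO. Of all genes, 0.0937% to 1.64% passed in the 6 comparisons. Of 17 genes of MHC class I antigen processing, 2 passed in Asxl1 KO against Rosa KO, both higher, where 1.64% of all genes passed. The median log2 fold change of the 17 was 0.19 there, with 12 above 0. Tapbp, the tapasin chaperone that loads peptides, had a log2 fold change of 0.81 ± 0.16 (adjusted p = 0.00628, edgeR). Tapbpl, its relative that edits peptides, had 0.95 ± 0.21 (adjusted p = 0.0158, edgeR). It also passed in Asxl1 KO against Dnmt3a KO (1.03 ± 0.23, adjusted p = 0.04996, edgeR, with 0.353% of genes passing). The peptide transporter Tap1, the class I regulator Nlrc5 and the transcription factor Irf1 did not pass in any comparison. None of the 17 passed in Dnmt3a KO or Tet2 KO against Rosa KO, where 0.216% and 1.47% of all genes passed.

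Some counts may hold reads of other genes. Exons of Psmb9 overlap those of Tap1 on the other strand, those of Psme1 overlap Emc9, and those of Psmb8 overlap the antisense gene Gm20496. Libraries were stranded per the labels' protocols, but the strand setting of the counting is not given in the sources used here. Tap1 had 1750 to 13717 counts per library, Emc9 48 to 559. Psme2b, a near copy of Psme2 with 398 to 3651 counts, and pseudogenes of Psmb5, Psmb6 and Psmb7 could share reads with those members, whose levels are uncertain to that extent.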

How the data were processed

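Count tables of 17 libraries gave whole-number read counts per gene. Alignment with STAR 2.5.3a to mm10 and use of DESeq2 1.26.0 are listed in the submitters' processing notes, without naming how reads were counted or which strand setting was used. The deposited counts were used as they stand. Genes were filtered (edgeR 4.0.16, R 4.3.3, at least 10 counts in enough libraries and 15 in all), scaled by TMM and fitted by edgeR's robust quasi-likelihood model with group and run over all 17 libraries (11 residual degrees of freedom), with Benjamini-Hochberg adjustment over 13881 genes at 0.05. CPM use TMM library sizes. Ratios had 0.5 added to each count. Exon lengths came from GENCODE M21. Totals per library ran from 6625833 to 40701203, which limits genes of few counts. The fit and the offset were tested on simulated counts without run differences, which do not show whether the calls made here are sound. Pairs of replicates differed beyond sampling noise (chi-square per degree of freedom 20.6 to 272 over 28 pairs). Alternatives were DESeq2 1.42.0, other scaling, filters and terms, single runs and left-out libraries. Genes named were the immunoproteasome members, their counterparts, PA28, each member that passed and each comparison's extremes. Others were singled out after their values were seen. Members and lists were chosen with earlier results of these data known.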

Additional observations from a re-analysis of the deposited data

Results flagged for a closer look

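In the group of 5 Rosa KO libraries, Psmb5 was lowest in Rosa KO 5 at 46.1 CPM, and its gap to the next library took 0.752 of the group's range. In Asxl1 KO, Psmb8 was lowest in Asxl1 KO 2 at 237 CPM, with a gap of 0.952 of the range. The log2 ratio of Psmb9 to Psmb6 was lowest among Asxl1 KO libraries in Asxl1 KO 3, at 1.48, with a gap of 0.848 of the range. Each was a sample far from the others by Dixon's 95% criterion, which chance meets in about 1 in 20 groups. Over all 46 tested members and 4 groups, 15 of 184 sets of values met it (8.15%).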

How the results depend on the processing

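For single named members, 967 values under the alternatives kept their direction and their side of the threshold, 54 dropped below it, 36 rose past it, 26 reversed and 11 untested ones moved. Counts of members passing against Rosa KO moved with the filter, the tool, the terms of the fit and single libraries. In Asxl1 KO (4 passed) 8 passed with no filter on low counts and 8 with DESeq2, 1 with a transcript length offset, 2 leaving out Tet2 KO 3 and 4, and 0 without the run term, with length and GC offsets, or leaving out Asxl1 KO 3 and 4. In Tet2 KO (1 passed) 6 passed with no filter and 6 with DESeq2, 4 within run 3, 2 with the B cell covariate, 2 with the libraries of the 2 groups only, 2 leaving out Asxl1 KO 3 and 4, and 0 without the run term, with the proliferation covariate, with either offset, or leaving out Tet2 KO 3 and 4. In Dnmt3a KO 1 passed with no filter (Psmb4). In Asxl1 KO against Dnmt3a KO 7 passed within run 1, where Asxl1 KO 1 alone faced 2 libraries and was assumed to vary like them. Leaving out 1 library at a time gave 0 to 8 in Asxl1 KO, 0 to 7 in Tet2 KO and 0 to 1 in Asxl1 KO against Dnmt3a KO. For the fits without the 2 pairs, the share of all genes passing is not given here, so their counts are not a result about members. The offsets, the proliferation covariate and the 2 pairs left out were chosen after seeing the data, and the causes were not tested.

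With the replicate number as a block 0 members passed in Asxl1 KO and 0 in Tet2 KO. The share of all genes passing with the block is not given here, so these counts are not a result about members. Of 24 same-numbered pairs 2 had residual correlations over 0.1 (range -0.669 to 0.217), and 2 of 17 libraries correlated best with their own number, so the numbers were not taken as pairs. The block turned Psmb10 in Dnmt3a KO to -0.0040 and Psme2 to -0.0748.

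Signs of log2 fold changes turned mainly in Dnmt3a KO against Rosa KO. Without the run term Psmb8 was -0.32, Psmb9 -0.25, Psmb10 -0.60, Psme1 -0.31, Psme2 -0.0154, Psmb3 -0.18 and Psmb4 -0.14. With the length offset Psmb8 was -0.10 and Psme2 -0.0201, and with length and GC Psmb8 -0.16, Psme1 -0.0243 and Psme2 -0.0665. With the 2 groups only Psmb8 was -0.10, Psmb10 -0.0464 and Psme2 -0.0749, and within run 1 -0.10, -0.0486 and -0.0773. Leaving out Asxl1 KO 3 and 4 Psmb8 was -0.066, and without 1 library each it ran from -0.0725 to 0.11. In Tet2 KO Psmb8 was -0.0473 without the run term and Psmd9 0.0347 with the proliferation covariate.

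Ratio differences within run 1 were 0.71 (Psmb8/Psmb5) and 3.42 (Psmb10/Psmb7) for Asxl1 KO minus Rosa KO, 1.11, 0.62 and 3.50 for the 3 ratios in Asxl1 KO minus Dnmt3a KO, and -0.42 (Psmb9/Psmb6) for Dnmt3a KO minus Rosa KO. Within run 2 Psmb8/Psmb5 was -0.0291 for Asxl1 KO minus Dnmt3a KO and -0.0416 minus Tet2 KO, and Psmb10/Psmb7 was 0.0262 for Asxl1 KO minus Dnmt3a KO and 0.0563 for Dnmt3a KO minus Tet2 KO. Without 1 library each, Psmb8/Psmb5 ran from -0.0037 to 0.30 in Asxl1 KO minus Rosa KO and from -0.028 to 0.11 in Dnmt3a KO minus Tet2 KO. Psmb9/Psmb6 ran from -0.0879 to 0.15 in Dnmt3a KO and from -0.0519 to 0.18 in Tet2 KO minus Rosa KO, and from -0.13 to 0.0471 in Dnmt3a KO minus Tet2 KO. Psmb10/Psmb7 ran from -0.0858 to 0.22 in Tet2 KO minus Rosa KO.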
